A study of Mus musculus with 8 samples.

Results

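The expression of 10 genes of growth hormone, prolactin and leptin signalling was examined in mouse liver: the receptor genes Ghr, Prlr and Lepr, the transducers Stat5b and Stat3, the growth factor Igf1, the feedback genes Cish, Socs2 and Socs3, and the repressor Bcl6. They were taken by name from a table of 21358 genes, and all 10 members were found and measured. Liver RNA was sequenced in 4 libraries labelled starvation glucose (SG, replicates 101, 103, 104 and 105) and in 4 labelled feeding glucose (FG, replicates 93, 94, 95 and 96). Both groups had been fasted every other day for 22 weeks, and they differed in whether glucose was taken in the starved (SG) or the fed (FG) metabolic state. The title of the series places them in a mouse model of metabolic dysfunction. The strain, genotype, age and sex of the mice, the dose of glucose and the hour of collection are not given in the sources used here. Nor do the labels say that the libraries of a group came from separate animals, so each p-value is set against library-to-library spread, which may be technical.

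Growth hormone, prolactin and leptin bind receptors of the cytokine receptor family, which have no kinase of their own and signal through the JAK2 kinase bound to them. JAK2 activates STAT5A and STAT5B downstream of growth hormone and prolactin, and STAT3 downstream of leptin and of cytokines of the interleukin 6 family. In liver, growth hormone and STAT5B drive Igf1, the source of most circulating IGF1, together with Cish, Socs2 and many sex-biased genes, while STAT3 drives Socs3 and acute phase genes. CIS, SOCS2 and SOCS3 in turn restrain the receptors, and Bcl6 is a repressor that binds DNA sites overlapping those of STAT5.

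Activated STAT dimers bind the palindrome TTCNNNGAA, which reads the same on both strands. The promoter windows of RefSeq (GRCm38.p6; 250 bases before to 50 after an annotated start) were searched for it, with overlapping matches allowed. Windows were found for 9 of the 10 members, 15 windows in all, and Socs2 had none in the table. The motif was present in 5 of these 15 windows, from 4 genes (Cish, Socs3, Bcl6 and Prlr), and in 8.30% of all 32851 windows. A pair or more of matches was held by 0.457% of all windows. Shown here are windows of Cish, Socs3 and Bcl6, which held the motif and whose expression spread widely among the FG libraries, each 5′ to 3′ on the strand of its gene and printed to 30 bases after the start, with the motif in capitals. They lie at chr9:107296409-107296688 (plus strand), chr11:117969337-117969616 (minus strand) and chr16:23981254-23981533 (minus strand, the second of 2 annotated Bcl6 starts).
Cish: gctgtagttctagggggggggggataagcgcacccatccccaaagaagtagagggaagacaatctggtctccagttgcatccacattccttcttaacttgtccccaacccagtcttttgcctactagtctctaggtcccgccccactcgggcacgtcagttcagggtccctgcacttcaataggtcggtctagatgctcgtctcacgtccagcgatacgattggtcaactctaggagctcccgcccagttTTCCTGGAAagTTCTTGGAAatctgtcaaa
Socs3: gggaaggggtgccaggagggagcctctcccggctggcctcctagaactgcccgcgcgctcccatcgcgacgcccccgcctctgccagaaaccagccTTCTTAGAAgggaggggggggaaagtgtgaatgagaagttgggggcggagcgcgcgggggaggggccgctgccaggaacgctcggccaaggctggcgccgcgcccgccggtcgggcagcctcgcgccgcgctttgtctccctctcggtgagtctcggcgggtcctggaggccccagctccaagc
Bcl6: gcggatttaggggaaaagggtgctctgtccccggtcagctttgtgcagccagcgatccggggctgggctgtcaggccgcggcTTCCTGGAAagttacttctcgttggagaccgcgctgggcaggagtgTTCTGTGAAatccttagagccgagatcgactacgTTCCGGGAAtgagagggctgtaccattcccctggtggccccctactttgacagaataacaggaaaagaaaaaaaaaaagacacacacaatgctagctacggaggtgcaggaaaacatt
The Cish window held 2 motifs, the first beginning at the annotated start (position 0) and the second at position 11. The Socs3 window held 1, beginning at position -154. The Bcl6 window held 3, beginning at positions -168, -122 and -88, and 11 of all 32851 windows held 3 or more. Not shown are the window of the first Bcl6 start, which held 1 at position -118, and a Prlr window with 1 at position -110. The windows of Ghr, Lepr, Igf1, Stat5b and Stat3 held none. These matches describe the letters of the windows and do not show binding. Whether the motif is related to the spread of expression was not tested.

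The libraries held 36545128 to 39214619 counted fragments in SG and 38253764 to 41977438 in FG. Expression was read as FPKM, fragment counts divided by gene length and by the library total, which sets genes of different length on 1 scale. A gene was tested when it reached 1 FPKM in at least 4 of the 8 libraries, and it was called when its adjusted p was below 0.05 in a limma fit of log2(FPKM + 1) over all 9867 tested genes. Fold changes are SG minus FG on that scale, which understates those of low genes. Of all tested genes, 19.4% were called, 3.73% higher and 15.6% lower in SG, and in 26.1% the 4 SG values did not overlap the 4 FG values. Over all tested genes the log2 fold change had a median of -0.14, and scaling by the median ratio between libraries moved it to 0.01, with 544 genes then called higher and 509 lower instead of 368 and 1544.

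All 10 members passed the filter, and 2 were called: Lepr was lower and Igf1 higher in SG. That share is close to the 19.4% of all tested genes. The 8 other members were not called. Groups did not overlap in 2 of the 10 members, Lepr and Stat3, beside 26.1% of all tested genes. The median log2 fold change of the members was 0.00. In the library with the fewest, each member was counted on at least 103 fragments (Cish in FG 96), and the largest count was 29891 (Igf1 in SG 105). Counting error was therefore at most 9.85% of a value.

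**Figure D1:**
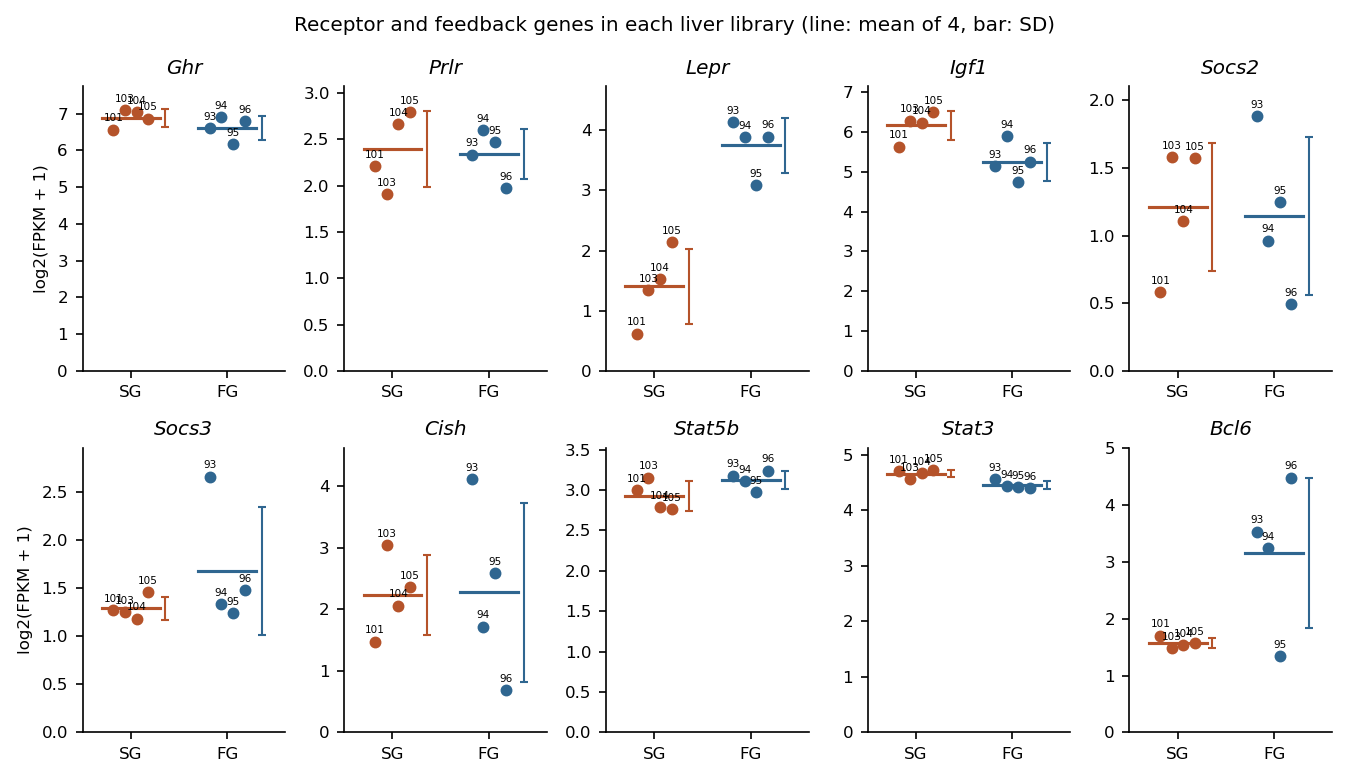
Expression of the 10 genes in each library, as log2(FPKM + 1) on the vertical axis, with SG on the left and FG on the right of each panel; points carry the replicate number, lines are means of 4 libraries and bars their SD. Lepr separates the groups, Igf1 overlaps by 1 library (SG 101 against FG 94), and Cish, Socs2, Socs3 and Bcl6 spread widely within FG.

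The leptin receptor gene was the member with the largest difference. Lepr (NCBI gene 16847, chromosome 4, 101717137 to 101815352 in GRCm38) encodes a receptor whose long form signals through STAT3 and whose short and soluble forms bind leptin without it. It had 0.535, 1.54, 1.87 and 3.40 FPKM in SG 101, 103, 104 and 105, against 16.5, 13.7, 7.50 and 13.8 FPKM in FG 93, 94, 95 and 96. Every SG library lay below every FG library. The highest SG value, in SG 105, and the lowest FG value, in FG 95, lay closest. These values rested on 241 to 1511 fragments in SG and 3613 to 7262 fragments in FG.
The mean was 1.83 ± 1.19 FPKM in SG and 12.9 ± 3.83 FPKM in FG (SD, n = 4 each), a mean 7.03-fold lower in SG. The log2 fold change was -2.34 (SE 0.32, limma adjusted p = 0.00319; exact two-sided permutation p = 0.0286, the smallest that 4 against 4 libraries allow). The call held in all 17 alternative settings, with a log2 fold change between -3.04 and -2.08. The table gives 1 value per gene, so the long, short and soluble forms cannot be told apart. Leprot, a separate gene upstream of Lepr that was named after its values were seen, had 7.85 ± 1.14 FPKM in SG and 9.99 ± 1.36 FPKM in FG (SD, n = 4 each) and was not called (log2 fold change -0.31, limma adjusted p = 0.114). Leptin itself, Lep, was listed between 0 and 0.0466 FPKM in the 8 libraries.

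The growth hormone receptor gene was the most abundant member in both groups. Ghr (chromosome 15, 3317755 to 3583352) had 93.4, 136, 130 and 116 FPKM in SG 101, 103, 104 and 105, against 96.1, 118, 71.2 and 110 FPKM in FG 93, 94, 95 and 96. The groups overlapped, since SG 101 lay below 3 of the FG libraries. The mean was 119 ± 18.9 FPKM in SG and 98.9 ± 20.6 FPKM in FG, and the difference did not pass (log2 fold change 0.27, SE 0.17, limma adjusted p = 0.288).
Prlr, the prolactin receptor gene (chromosome 15, 10177238 to 10349190), had 3.62, 2.76, 5.33 and 5.93 FPKM in SG 101, 103, 104 and 105, against 4.04, 5.07, 4.53 and 2.91 FPKM in FG 93, 94, 95 and 96. The groups overlapped over nearly their whole range, with SG holding both the lowest and the highest value. Prlr was not called (log2 fold change 0.05, SE 0.21, limma adjusted p = 0.885). Long and short forms of this receptor also share 1 value.

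Of the transducers, Stat3 differed little between libraries and Stat5b somewhat more. Stat3 (chromosome 11, 100886806 to 100939594) had 25.0, 22.5, 24.4 and 25.2 FPKM in SG 101, 103, 104 and 105, against 22.5, 20.6, 20.3 and 20.1 FPKM in FG 93, 94, 95 and 96. All SG values lay above all FG values, though SG 103 and FG 93 nearly touched, at 22.53 and 22.49 FPKM. The mean was 24.3 ± 1.22 FPKM in SG and 20.9 ± 1.09 FPKM in FG (SD, n = 4 each).
The log2 fold change of 0.21 (SE 0.08) did not pass on the deposited scale (limma adjusted p = 0.0914; exact permutation p = 0.0286), and it passed after median-ratio scaling, where it was 0.38 (limma adjusted p = 0.019). Stat5b (chromosome 11, 100780731 to 100859004) had 7.01, 7.91, 5.90 and 5.78 FPKM in SG 101, 103, 104 and 105, against 8.06, 7.63, 6.87 and 8.45 FPKM in FG 93, 94, 95 and 96. The groups overlapped, with SG 104 and SG 105 below every FG library. It was not called (log2 fold change -0.20, SE 0.11, limma adjusted p = 0.242). Stat5a, Stat5b and Stat3 lie side by side on chromosome 11, and in GENCODE vM21 exons of Stat3 and Stat5a share 72 bases on opposite strands.

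Igf1, the gene of the growth factor that the liver secretes under growth hormone, was the other called member (NCBI gene 16000, chromosome 10, 87858265 to 87937047). It had 48.7, 76.7, 74.2 and 89.8 FPKM in SG 101, 103, 104 and 105, against 34.2, 58.2, 25.6 and 37.1 FPKM in FG 93, 94, 95 and 96. Of the SG libraries 3 lay above all of FG, and SG 101 lay below FG 94. The mean was 72.4 ± 17.2 FPKM in SG and 38.8 ± 13.8 FPKM in FG (SD, n = 4 each), 1.87-fold higher in SG.
The log2 fold change was 0.91 (SE 0.25, limma adjusted p = 0.0355; exact permutation p = 0.0571). The call rested on the full set of libraries: it was lost without FG 93, FG 95, FG 96, SG 103, SG 104 or SG 105 in turn (limma adjusted p between 0.0682 and 0.0935), and kept without FG 94 or SG 101. It was also lost with no filter on low values (limma adjusted p = 0.0985) and with quantile normalization (0.0507), and the direction was the same throughout.

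**Figure D2:**
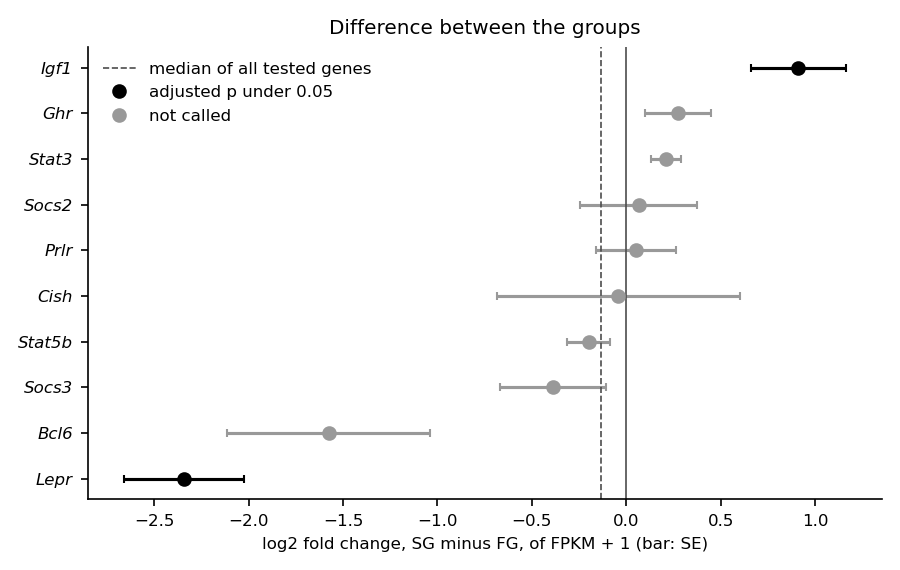
Difference of each gene between SG and FG (SG minus FG, log2 of FPKM + 1) with limma's SE; black marks an adjusted p under 0.05 and the dashed line the median of all 9867 tested genes. Igf1 (0.91) and Lepr (-2.34) are the called members, and Bcl6 (-1.58) has a wide error.

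The feedback genes varied several-fold between the FG libraries, and Cish and Socs2 also between the SG libraries. Cish encodes CIS, an inhibitor of STAT5 signalling that STAT5 itself induces (chromosome 9, 107296659 to 107302784). It had 1.78, 7.23, 3.16 and 4.13 FPKM in SG 101, 103, 104 and 105, against 16.3, 2.28, 5.01 and 0.607 FPKM in FG 93, 94, 95 and 96. Both the highest and the lowest value were in FG, 26.8-fold apart, and the SG values lay between them. Its SD on the log2 scale was 0.65 in SG and 1.45 in FG, where all tested genes had a median SD of 0.18 in SG and 0.16 in FG. In FG 99.6% of tested genes had a smaller SD. Cish was not called (log2 fold change -0.04, SE 0.64, limma adjusted p = 0.969), and the sign of this difference changed with the scaling (0.09 after median-ratio scaling). Exons of the predicted genes Gm17041 and Gm17040 on the opposite strand overlap 479 and 261 bases of Cish exons, and the sources used here do not say whether counting used strand.

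Socs2 encodes the main brake on the growth hormone receptor (chromosome 10, 95383903 to 95417321; mice without it grow large). It had 0.497, 1.99, 1.15 and 1.97 FPKM in SG 101, 103, 104 and 105, against 2.68, 0.948, 1.37 and 0.406 FPKM in FG 93, 94, 95 and 96. As with Cish, FG 93 was highest and FG 96 lowest, and the groups overlapped fully. Socs2 was not called (log2 fold change 0.06, SE 0.31, limma adjusted p = 0.900).
Socs3, the brake on leptin and interleukin 6 receptors (chromosome 11, 117966079 to 117970336), had 1.41, 1.37, 1.27 and 1.75 FPKM in SG 101, 103, 104 and 105, against 5.30, 1.52, 1.36 and 1.78 FPKM in FG 93, 94, 95 and 96. Apart from FG 93 all libraries lay between 1.27 and 1.78 FPKM. It was not called (log2 fold change -0.39, SE 0.28, limma adjusted p = 0.355), and without FG 93 the log2 fold change was -0.06.

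Cish and Socs2 followed nearly the same order across the libraries. Over the 8 libraries, both groups together, log2(FPKM + 1) of Cish and Socs2 had Pearson's r = 0.94 (exact permutation p = 0.000422, adjusted over 45 pairs of members p = 0.019) and Spearman's rho = 0.98 (exact permutation p = 0.000397, adjusted p = 0.0179). Without FG 93 and FG 96, the libraries farthest from the median of Socs2, r was 0.89. After the mean of each group had been subtracted, r was 0.94. Of the 45 pairs, this 1 passed the adjustment. Ghr and Igf1 came next by the p of Pearson's r, with r = 0.84 (exact permutation p = 0.0063, adjusted p = 0.142), rho = 0.79 (exact permutation p = 0.0279, adjusted p = 0.314) and r = 0.78 without FG 95 and SG 101, and did not pass.

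**Figure D3:**
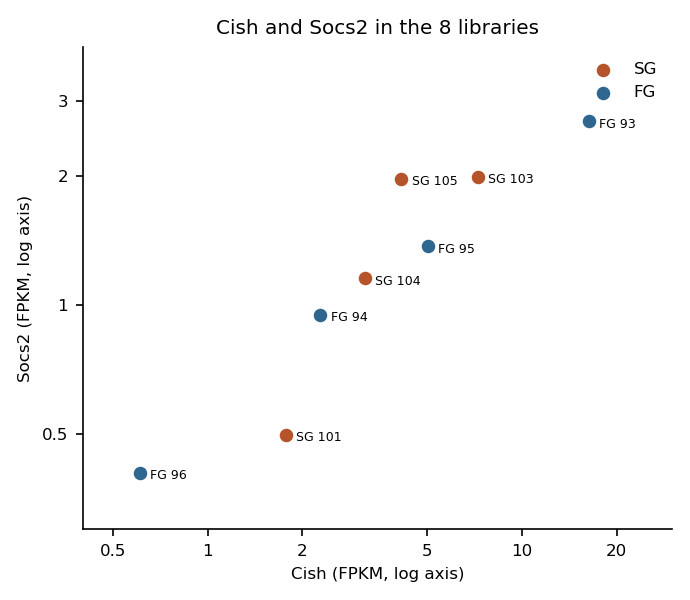
Cish (horizontal axis) and Socs2 (vertical axis) in FPKM on log axes, 1 point per library. FG 96 is lowest and FG 93 highest for both genes, and the SG libraries lie among the FG libraries.

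Bcl6 was low in every SG library and scattered in FG. It encodes a zinc finger repressor that in mouse liver is male-biased and represses female-biased genes and genes of lipid oxidation (NCBI gene 12053, chromosome 16, 23965050 to 23988866). It had 2.26, 1.79, 1.91 and 1.97 FPKM in SG 101, 103, 104 and 105, against 10.6, 8.46, 1.53 and 21.4 FPKM in FG 93, 94, 95 and 96. Of the FG libraries 3 lay above all of SG, and FG 95 lay below all of SG. The mean was 1.98 ± 0.198 FPKM in SG and 10.5 ± 8.23 FPKM in FG (SD, n = 4 each), so the mean was 5.30-fold lower in SG.
The SD on the log2 scale was 0.09 in SG, smaller than in most tested genes, and 1.32 in FG, where 99.5% of tested genes had a smaller SD. Bcl6 was not called (log2 fold change -1.58, SE 0.54, limma adjusted p = 0.0676; exact permutation p = 0.143). Leaving out FG 95 gave -2.18 (limma adjusted p = 0.00348), and weighting libraries by their fit gave -2.07 (limma adjusted p = 0.00976). FG 95 was also the lowest FG library for Ghr, Igf1, Lepr, Stat5b and Socs3, and it was neither the lowest nor the highest for Cish, Socs2, Prlr and Stat3. Within SG, library SG 101 was the lowest for Ghr, Igf1, Lepr, Cish and Socs2 and the highest for Bcl6. For Prlr, Socs3, Stat5b and Stat3 it was neither.

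**Figure D4:**
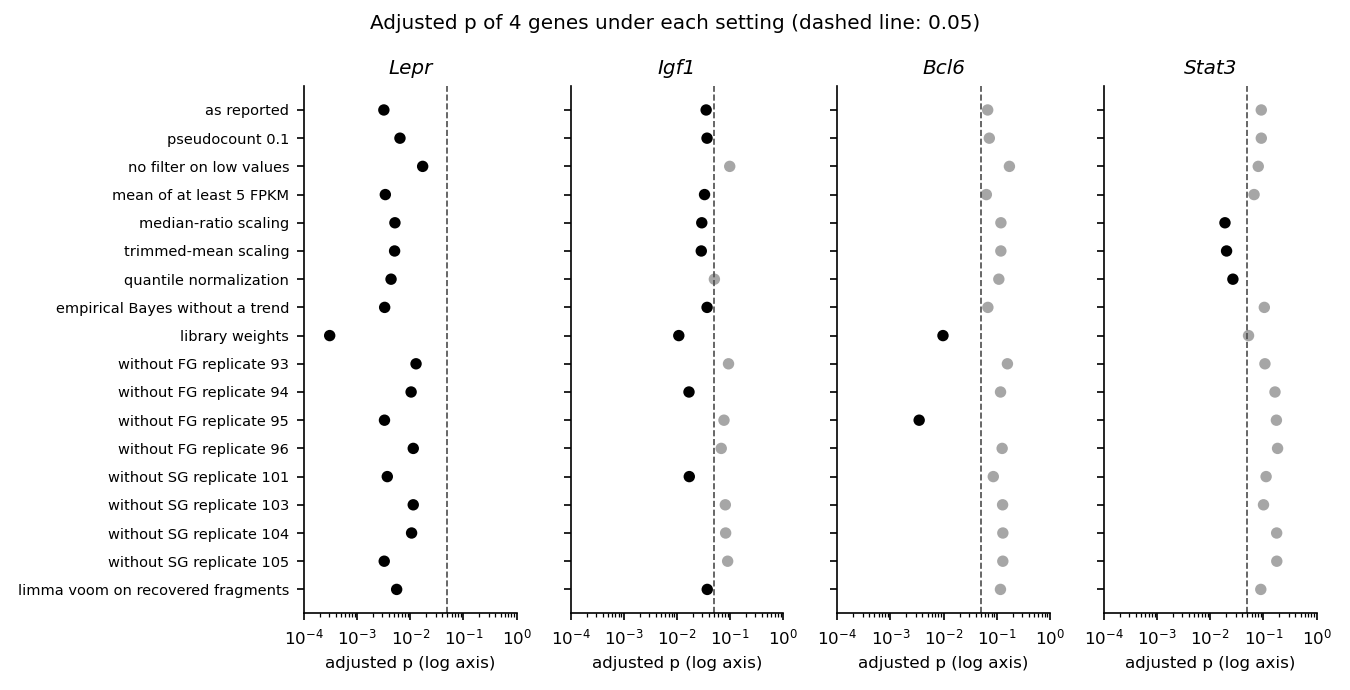
Adjusted p (horizontal log axis) of Lepr, Igf1, Bcl6 and Stat3 as reported and under 17 alternative settings (rows), black where below 0.05, the dashed line. Lepr stays below 0.05 in every row, Igf1 in 10 of 18, Bcl6 in the 2 rows with library weights or without FG 95, and Stat3 in the 3 rows with rescaled libraries.

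By level per length, the order of the members in SG was Ghr, Igf1, Stat3, Stat5b, Prlr, Cish, Bcl6, Lepr, Socs3 and Socs2, with means of 119, 72.4, 24.3, 6.65, 4.41, 4.07, 1.98, 1.83, 1.45 and 1.40 FPKM. In SG the ranges of Ghr, Igf1, Stat3 and Stat5b did not overlap, and from Stat5b downwards each gene overlapped with the next. In FG the order was Ghr, Igf1, Stat3, Lepr, Bcl6, Stat5b, Cish, Prlr, Socs3 and Socs2, with means of 98.9, 38.8, 20.9, 12.9, 10.5, 7.75, 6.04, 4.14, 2.49 and 1.35 FPKM. In FG the ranges of Ghr, Igf1, Stat3 and Lepr did not overlap, and from Lepr downwards each gene overlapped with the next.

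Within each library 7 ratios between genes were taken, as differences of log2(FPKM + 1), so the added 1 shrinks those of low genes. The log2 ratio of Igf1 to Ghr was -0.73 ± 0.25 in SG and -1.36 ± 0.24 in FG (SD, n = 4 each), a difference of 0.64 with groups that did not overlap (exact two-sided permutation p = 0.0286, adjusted over the 7 ratios p = 0.1). That of Socs3 to Stat3 was -3.37 ± 0.11 in SG and -2.77 ± 0.59 in FG, a difference of -0.60 (exact permutation p = 0.0286, adjusted p = 0.1) that was -0.30 without FG 93. Bcl6 to Stat5b differed by -1.38 (exact permutation p = 0.114, adjusted p = 0.267). The ratios of Socs2 and Cish to Ghr, of Socs2 to Cish and of Stat5b to Stat5a differed by -0.32 to 0.12 (smallest exact permutation p = 0.343, adjusted p = 0.6). None passed the adjustment.

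The tested genes whose centred profile lay nearest to a member were found by the root-mean-square difference of log2(FPKM + 1) over the 8 libraries. Group means were not removed, so for a member that differs between SG and FG, genes with a similar difference rank near. Nearest to Lepr were Elovl6, an elongase of fatty acids (0.51), and Scd1, the fatty acyl desaturase (0.51), where Lepr itself had an SD of 1.35 over the 8 libraries. Their log2 fold changes were -2.87 and -2.47, beside -2.34 for Lepr. Among the nearest to Igf1 was Cntrl, which encodes the centrosomal protein centriolin (0.13), where Igf1 had an SD of 0.63. Nearest to Cish were Slc25a30, a mitochondrial carrier (0.30), and Onecut1, the hepatocyte factor HNF6 that responds to growth hormone (0.50). Onecut1 was not called (log2 fold change -0.03, limma adjusted p = 0.979). For Bcl6 the nearest, Carmil1 (0.60) and Krt23 (0.61), lay farther away in log2 units than for any other member. Bcl6 had an SD of 1.21 over the 8 libraries. These distances are not scaled to a gene's own spread, and that of Prlr to its nearest gene was 0.17 with an SD of 0.32.

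Among the other kinases and STATs of the pathway, 2 of 8 tested genes fell and none rose, with a median log2 fold change of -0.21 beside -0.14 for all tested genes. Of all tested genes 15.6% fell and 3.73% rose, and the counts of this list and of each later list are to be read beside these shares. Stat6, the transducer of interleukin 4, fell to 15.2 ± 1.66 FPKM in SG, against 22.8 ± 0.674 FPKM in FG (log2 fold change -0.56, limma adjusted p = 0.00615), a call that held in all 17 alternative settings. Jak2, the kinase of all 3 receptors, averaged 1.37 ± 0.326 FPKM in SG and 1.68 ± 0.385 FPKM in FG and was not called (limma adjusted p = 0.395), nor was Stat5a (2.23 ± 0.805 FPKM in SG and 2.96 ± 0.419 FPKM in FG, limma adjusted p = 0.214).
Of 14 other tested brakes of the pathway 1 fell and none rose: Ptpn11, the phosphatase SHP2, with a log2 fold change of -0.36 (limma adjusted p = 0.0405). That call was lost in 12 of 17 alternative settings, the 3 rescalings among them, and the median of the list turned from -0.10 to 0.03 after median-ratio scaling. Socs1 averaged 0.12 FPKM in SG and 0.342 FPKM in FG, below the filter.

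No called gene was found among 17 tested receptors of the gp130 family and acute phase genes, by limma or by limma voom, and 3 had an unadjusted p under 0.05, while quantile normalization called 2 lower. The median log2 fold change was 0.04. Il6st, which encodes gp130 itself, averaged 29.7 ± 3.12 FPKM in SG and 31.8 ± 4.46 FPKM in FG (limma adjusted p = 0.606). Il6ra, the interleukin 6 receptor, had 22.6, 19.1, 26.1 and 24.9 FPKM in SG 101, 103, 104 and 105, against 7.46, 10.1, 12.3 and 23.1 FPKM in FG 93, 94, 95 and 96. FG 96 lay within the SG range, and the log2 fold change of 0.87 did not pass (limma adjusted p = 0.0554).

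Of 8 tested genes of the IGF1 complex and its receptors, 1 rose and none fell. Igfbp1, an IGF1-binding protein that insulin represses, rose in SG, where it had 36.6, 109, 98.1 and 232 FPKM in SG 101, 103, 104 and 105, against 15.4, 17.9, 18.7 and 31.3 FPKM in FG 93, 94, 95 and 96 (log2 fold change 2.23, SE 0.47, limma adjusted p = 0.0151). Every SG library lay above every FG library, and the call was lost with no filter on low values (limma adjusted p = 0.0515). Igfals, which holds IGF1 in its circulating complex, averaged 34.2 ± 2.43 FPKM in SG and 26.8 ± 4.05 FPKM in FG without overlap and was not called (log2 fold change 0.35, limma adjusted p = 0.066). Igfbp2 averaged 376 ± 42.3 FPKM in SG and 291 ± 51.3 FPKM in FG (limma adjusted p = 0.0863). The median of the list was 0.23, and 3 of its 8 genes were called after median-ratio scaling.

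Targets of the sex-dependent pattern of growth hormone were compared in a male-biased and a female-biased list, in which several genes have near-identical paralogs whose reads are hard to assign. Of 22 tested male-biased genes 7 rose and 2 fell, with a median log2 fold change of 0.68. Over all tested genes 3.73% rose and 15.6% fell, with a median of -0.14. The other 13 tested male-biased genes were not called. The rises with the smallest p were Selenbp2 (467 ± 259 FPKM in SG and 13.3 ± 6.56 FPKM in FG, limma adjusted p = 0.000469), Serpina1e (5164 ± 704 FPKM in SG and 494 ± 287 FPKM in FG, limma adjusted p = 0.000995) and C8b, a complement subunit (210 ± 33.0 FPKM in SG and 97.7 ± 22.8 FPKM in FG, limma adjusted p = 0.00568). C8a, Elovl3, Mup7 and Susd4 were the other rises, and that of C8a was lost in 9 of 17 alternative settings and that of Mup7 in 4. The falls were Cyp2u1 (-0.81, limma adjusted p = 0.0275) and Nudt7 (-0.79, limma adjusted p = 0.0486), and neither was called after median-ratio scaling, where 8 of the 22 rose and none fell.
Of 11 tested female-biased genes 1 rose and 1 fell, with a median of -0.10 (0.04 after median-ratio scaling). The female-biased list names 23 genes, and 9 of them lay below 1 FPKM in every library. Its counts and median therefore cover only the more abundant part of the list. Cyp2b9, a cytochrome P450, fell to between 0.0496 and 0.355 FPKM in SG, against 18.4 to 84.1 FPKM in FG, while its paralog Cyp2b10, which xenobiotic receptors also induce, rose to 5.18 ± 2.92 FPKM in SG, against 0.657 ± 0.266 FPKM in FG (limma adjusted p = 0.000433 for Cyp2b9 and 0.00825 for Cyp2b10). Cux2, a female-specific repressor in mouse liver, averaged 0.182 FPKM in SG and 0.27 FPKM in FG, below the filter.
Of 13 tested transcription factors linked to growth hormone action, 1 fell: Cebpa, to 89.0 ± 8.18 FPKM in SG, against 129 ± 13.2 FPKM in FG (limma adjusted p = 0.012), a call lost after median-ratio and trimmed-mean scaling (highest limma adjusted p = 0.054). Foxo1 and Ppara were not called, with log2 fold changes of 0.10 and 0.03 (limma adjusted p = 0.714 and 0.846).

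**Figure D5:**
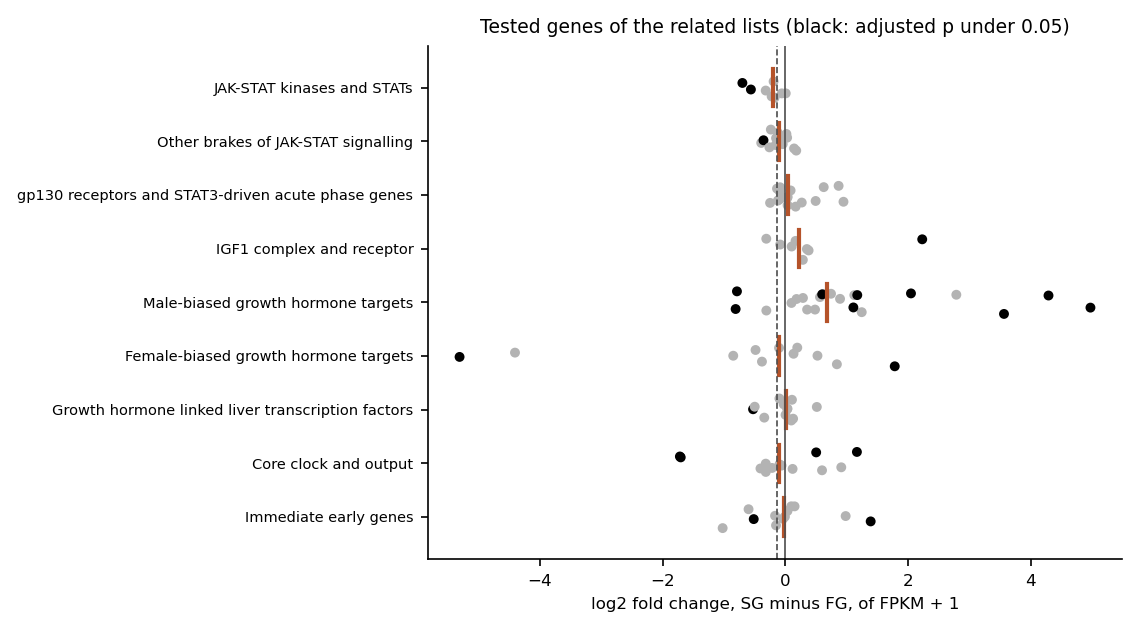
Log2 fold change, SG minus FG, of the tested genes in each related list (rows; vertical scatter is for legibility), black where the adjusted p is under 0.05, with the median of each list in orange and that of all tested genes dashed. The male-biased list has the highest median (0.68), with called genes at both ends, and the other medians lie between -0.21 and 0.23.

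Markers of time, stress and other cell types were read beside these results. Of 13 tested clock genes 2 rose and 2 fell. Among them, Nr1d1, the REV-ERB alpha repressor, had 6.22 ± 3.46 FPKM in SG and 20.7 ± 2.79 FPKM in FG (log2 fold change -1.72, limma adjusted p = 0.0092), and Nfil3 had 5.33 ± 1.38 FPKM in SG and 1.80 ± 0.536 FPKM in FG (1.17, limma adjusted p = 0.00597). Dbp fell with a log2 fold change of -1.70 (limma adjusted p = 0.0204), a call lost with no filter on low values and without FG 93 or SG 105. Of 12 tested immediate early genes, Egr1 rose (1.39, limma adjusted p = 0.0255) and Klf2 fell (-0.51, limma adjusted p = 0.0226). The call of Egr1 was lost in 5 alternative settings (no filter on low values, or without FG 93, FG 95, FG 96 or SG 105) and that of Klf2 in 9, the 3 rescalings among them. The part of clock phase and of the hour of collection in the values of Lepr, Igf1 and Bcl6 was not tested.

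In bulk tissue, fewer cells of a type and less RNA per cell cannot be told apart. Hepatocyte markers summed to 56821 to 72741 FPKM in SG and 53417 to 63531 FPKM in FG, and all 10 were tested, with 2 called higher (Cps1, lost in 3 of 17 alternative settings, and Apoa1, lost in 9, among them every one that left out a library). Endothelial markers summed to 106 to 119 FPKM in SG and 132 to 157 FPKM in FG, with 2 of 10 called lower (Clec4g and Fcgr2b) and 0 called after median-ratio scaling. Macrophage markers summed to 243 to 500 FPKM in SG and 293 to 466 FPKM in FG, with 0 of 12 called by limma or limma voom and 0 with an unadjusted p under 0.05. Stellate cell and fibroblast markers summed to 79.3 to 103 FPKM in SG and 82.5 to 133 FPKM in FG, with 0 of 9 called by limma or limma voom and 0 with an unadjusted p under 0.05. Lymphocyte markers summed to 3.56 to 5.95 FPKM in SG and 2.02 to 5.86 FPKM in FG, with 6 of 10 below 1 FPKM in every library. Cholangiocyte markers summed to 13.0 to 19.1 FPKM in SG and 21.9 to 27.7 FPKM in FG, with 1 of 2 tested called lower (Spp1) and 0 after median-ratio scaling. Neutrophil markers summed to 1.54 to 1.87 FPKM in SG and 2.90 to 4.44 FPKM in FG, with the 1 tested gene, S100a9, called lower, and not called after median-ratio scaling. The part of these cell types in the members' values was not tested.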

How the data were processed

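The data are liver RNA-seq values of 8 libraries, read as 150 bp pairs. The submitters' processing notes list the tools DESeq2, HTSeq, HISAT2 and fastp and the builds mm10 and GRCm38, without versions or roles, and the series text names HISAT2 for alignment. The authors deposited FPKM per gene and library. All 8 columns were matched by label and 0 were left unmatched.

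Values were tested as log2(FPKM + 1) with limma 3.58.1 in R 4.3.3 (empirical Bayes with a mean-variance trend, no covariates, Benjamini-Hochberg over 9867 genes, checked on simulated data). Exact permutation tests between groups used the 70 assignments of 4 and 4 libraries, and those of correlations all orders of the 8 libraries. Fragment counts were worked back from the smallest increments of FPKM, whole within 0.02 for 19387 of 21358 genes and for every member. The absolute totals were fixed by 186 genes of matching exon length in GENCODE vM21. The counting error given for the members comes from these fragment counts alone, whereas SDs and limma's SEs reflect spread between libraries.

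Alternatives changed the pseudocount, filter, scaling, variance model and library weights, or left out 1 library. Named were the 10 members, up to 3 called genes of each related list with the smallest p, 13 pathway genes fixed by name and the 2 nearest profiles of each member (a few genes under this rule are not reported here); Leprot and the called markers of the cell lists were added afterwards. Members, lists and tests were chosen with earlier results of these data known. Positions are those of RefSeq GRCm38.p6.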

Additional observations from a re-analysis of the deposited data

Results flagged for a closer look

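Socs3 in FG 93 stood apart from the other FG libraries, at 2.66 on the log2(FPKM + 1) scale (5.30 FPKM). The gap to the nearest FG library was 0.834 of the whole FG range, above Dixon's 95% critical value for 4 values. Of 34 groups of 4 libraries looked at (10 genes and 7 ratios in each group) this was the 1 that stood apart. Chance gives about 1 in 20 such groups, so 1 among 34 is no more than chance gives. The groups are not independent, since the ratios reuse the same genes. The same library was the highest of all 8 for Cish, Socs2 and Lepr.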

How the results depend on the processing

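No paired analysis was possible because the groups share no replicate numbers. Lepr kept its direction and its call under all 17 alternatives, one of which, limma voom on recovered fragments, was added after the data had been seen. Members called higher numbered 1 as reported, 0 with no filter on low values, 2 after median-ratio and 2 after trimmed-mean scaling (Stat3 joined Igf1), and 0 to 1 when 1 library was left out. Members called lower numbered 1, 2 with library weights (Bcl6 joined Lepr), and 1 to 2 when 1 library was left out. Over all tested genes, calls without filter were 219 higher and 914 lower; library weights gave 572 higher; calls lower were 509 after median-ratio scaling, 507 after trimmed-mean scaling and 616 after quantile normalization. Leaving out 1 library gave 181 to 467 higher and 653 to 1896 lower, with the lowest count of each without FG 93; leaving out FG 95, SG 103 or SG 104 also moved both counts by over 1.5 times (245, 223 and 219 higher; 857, 864 and 817 lower), as did SG 105 for genes lower (782). The cause of these shifts was not tested. Among the uncalled members, Cish, Prlr and Socs2 turned in sign under some alternatives, and the others kept theirs. Cish, at -0.04, was at 0.11 with a pseudocount of 0.1, 0.0937 after median-ratio and 0.0925 after trimmed-mean scaling, 0.13 after quantile normalization, 0.53 with library weights, 0.14 by limma voom and -0.57 to 0.57 when 1 library was left out. Prlr ranged from -0.0828 to 0.21 and Socs2 from -0.15 to 0.31 when 1 library was left out. Log2 ratio differences ranged, when 1 library was left out, from -0.486 to 0.0406 for Socs2 to Ghr, from -0.906 to 0.30 for Cish to Ghr and from -0.260 to 0.420 for Socs2 to Cish, and each turned in sign without FG 93. With a mean of at least 5 FPKM required, Prlr, Socs2 and Socs3 were filtered out and have no value. With 4 libraries a group, spread between libraries, more than fragment depth, limits what can be said of Cish, Socs2 and Bcl6.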

Other observations

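The labels give no sex, and several lists above are sex-biased, so X- and Y-linked transcripts were read, chosen after the data had been seen. Xist, which marks female cells, was at most 0.00891 FPKM in all 8 libraries. The Y-linked gene Kdm5d had 2.58, 3.32, 3.11 and 3.08 FPKM in SG 101, 103, 104 and 105, against 2.18, 3.02, 1.68 and 2.60 FPKM in FG 93, 94, 95 and 96. Another Y-linked gene, Ddx3y, had 4.00, 19.0, 16.2 and 16.8 FPKM in SG 101, 103, 104 and 105, against 7.71, 14.2, 0.904 and 7.95 FPKM in FG 93, 94, 95 and 96. FG 95 was lowest for both, and neither gene was called (limma adjusted p = 0.184 for Kdm5d and 0.329 for Ddx3y).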
